A study of Lotus japonicus with 14 samples.

Results

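Of 38476 gene models of the legume Lotus japonicus, 208 were transiently high in nodules at 7 days after inoculation (dai). They were chosen by their levels in 14 RNA libraries, given as CPM, the count of a gene model relative to the library's total, after TMM scaling between libraries. A member had at least 1 CPM in the higher of the 2 uninoculated roots and a mean of at least 10 CPM over the 4 libraries of 7 dai. Its 7 dai mean was also at least 2-fold above the mean of the 4 libraries of 5 dai. The same fold was required over the mean of 3 libraries of 10 dai, which were wild type with each strain and apn1 with MAFF303099. The remaining library, apn1 with TONO at 10 dai, had no part in the choice. The 2 floors alone were met by 13626 gene models, of which 918 had the rise from 5 to 7 dai and 1196 the decline from 7 to 10 dai.

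Each library was 1 condition with no replicate. Plants were wild type (accession MG20, Miyakojima) or the mutant apn1, labelled Fix-, and grew in vermiculite with a nitrogen-free medium. They were either left uninoculated, giving 1 root library per genotype, or inoculated with Mesorhizobium loti MAFF303099 or TONO at 7 days after planting. Primordia and developing nodules were excised at 5, 7 and 10 dai from each of the 4 combinations of genotype and strain. A root library differs from a nodule library in tissue, in inoculation and in age, and the parts of these cannot be told apart. Libraries of 10 dai held 33981124 to 37261815 counts and the others 48180653 to 58395305, and day and depth thus moved together. In these bulk samples, fewer cells of a type and less RNA per cell cannot be told apart.

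In this legume, rhizobia induce divisions in the root cortex that form a nodule primordium, and enter it through infection threads. Cells of the young nodule then fill with bacteroids, leghemoglobin accumulates and nitrogen fixation begins. Genes that are high only between these stages are of interest for infection and for the growth of the organ. APN1 is a nodule-induced aspartic peptidase, and its mutants are known to form ineffective nodules with some strains, among them TONO, and effective ones with MAFF303099. The files identify gene models by number only. None of the 38476 identifiers matched the supplied name table, so no gene name, function, cell type marker or sequence is given, and the mutated gene was not checked.

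The members were low to moderate in level outside 7 dai. Over the 208 gene models the median of the means was 7.18 CPM in roots, 11.3 at 5 dai, 32.9 at 7 dai and 10.9 in the 3 libraries of 10 dai. Their 7 dai means ran from 10.0 to 1503 CPM. Together they held 0.447% and 0.485% of the counts of the roots, 0.387% to 0.899% at 5 dai, 1.63% to 2.0% at 7 dai and 0.495% to 0.521% in the 3 libraries of 10 dai. These day differences chose the members and are a description. All 4 libraries of 7 dai were above all 4 of 5 dai and the 3 of 10 dai for 185 of 208 members, where 4.90% of the gene models over the floors had this order; since the choice used these libraries, nothing is read from either share. Within 7 dai the coefficient of variation over the 4 libraries had a median of 17.8% for the members and 11.1% for the gene models over the floors. For each member, the 7 dai library where its CPM was highest held a median of 29.8% of its summed 7 dai level and at most 48.7%.

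**Figure D1:**
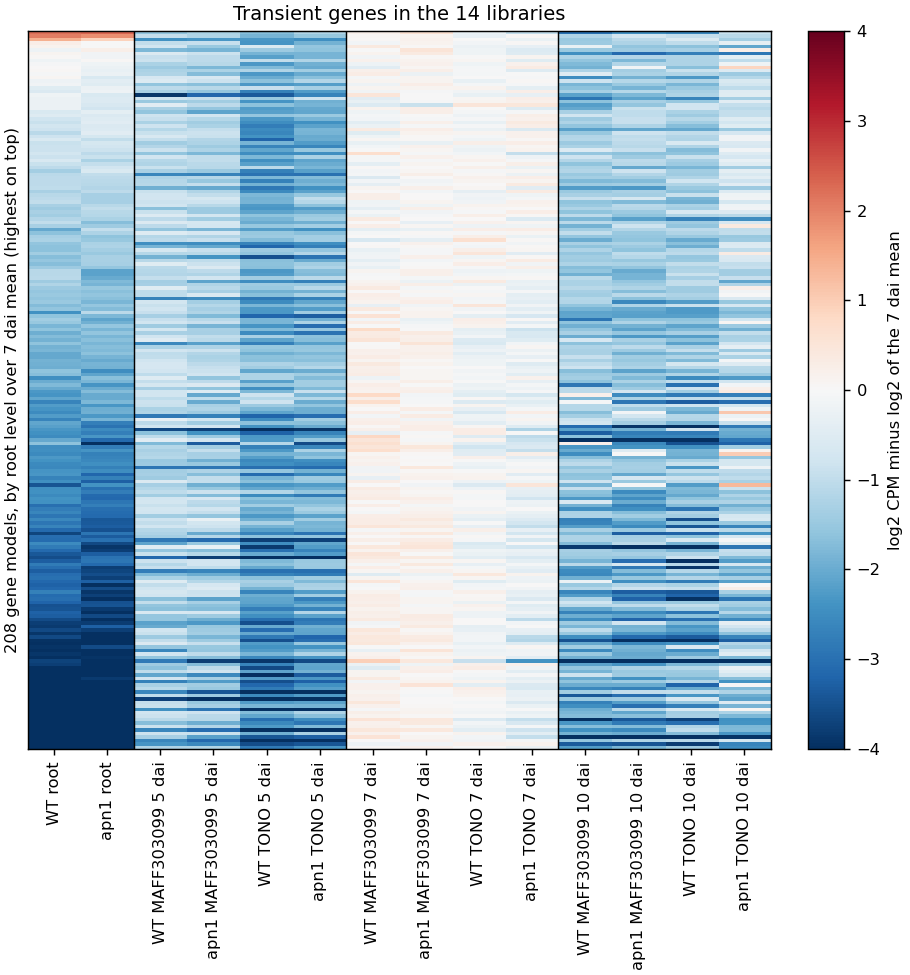
Levels of the 208 members (rows) in the 14 libraries (columns), as log2 CPM minus log2 of the member's 7 dai mean, with rows ordered by root level over 7 dai level and colours limited to -4 and 4. The 7 dai columns are near 0, as the choice requires, the TONO columns of 5 dai are darker than those of MAFF303099, and the last column, apn1 with TONO at 10 dai, is paler than the other 10 dai columns.

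The peak ratio, the smaller of the 7 dai mean over the 5 dai mean and over the 10 dai mean, had a median of 2.41, and 41 members reached 3 or more. The most abundant member was chr3.CM0846.320.r2.d. It had 173 and 134 CPM in the wild type and apn1 roots, 331 to 728 CPM at 5 dai and 1196 to 1765 CPM at 7 dai. At 10 dai it had 538 to 784 CPM in the 4 libraries, so its nodule levels were above both roots on every day. The next, chr4.CM0004.60.r2.d, was low in roots, at 3.59 and 2.56 CPM. With MAFF303099 it had 494 and 508 CPM at 5 dai in wild type and apn1, 1217 and 1324 at 7 dai, and 250 and 330 at 10 dai. With TONO the levels were 166 and 231, then 1175 and 990, then 436 and 205 CPM.

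The sharpest peak was that of LjSGA_134572.1, with a 7 dai mean 12.6-fold above that of 5 dai. Its levels at 7 dai were 73.1 CPM in wild type and 50.7 in apn1 with MAFF303099, and 19.6 and 6.69 CPM with TONO. Everywhere else it was under 5 CPM, with 8 and 9 counts at 10 dai with MAFF303099 and 29 and 62 with TONO. The second, LjSGA_012757.1, had 1.08 and 1.44 CPM in roots, 13.0 to 30.2 at 5 dai, 139 to 178 at 7 dai and 11.1 to 25.0 at 10 dai. Just inside the 2-fold threshold lay chr2.CM0008.1110.r2.d and chr3.CM0136.240.r2.a, with peak ratios of 2.0012 and 2.0015. Just outside it lay LjSGA_097658.1 and LjSGA_030413.2, at 1.9989 and 1.9969. The threshold therefore cuts a continuous range of ratios.

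**Figure D2:**
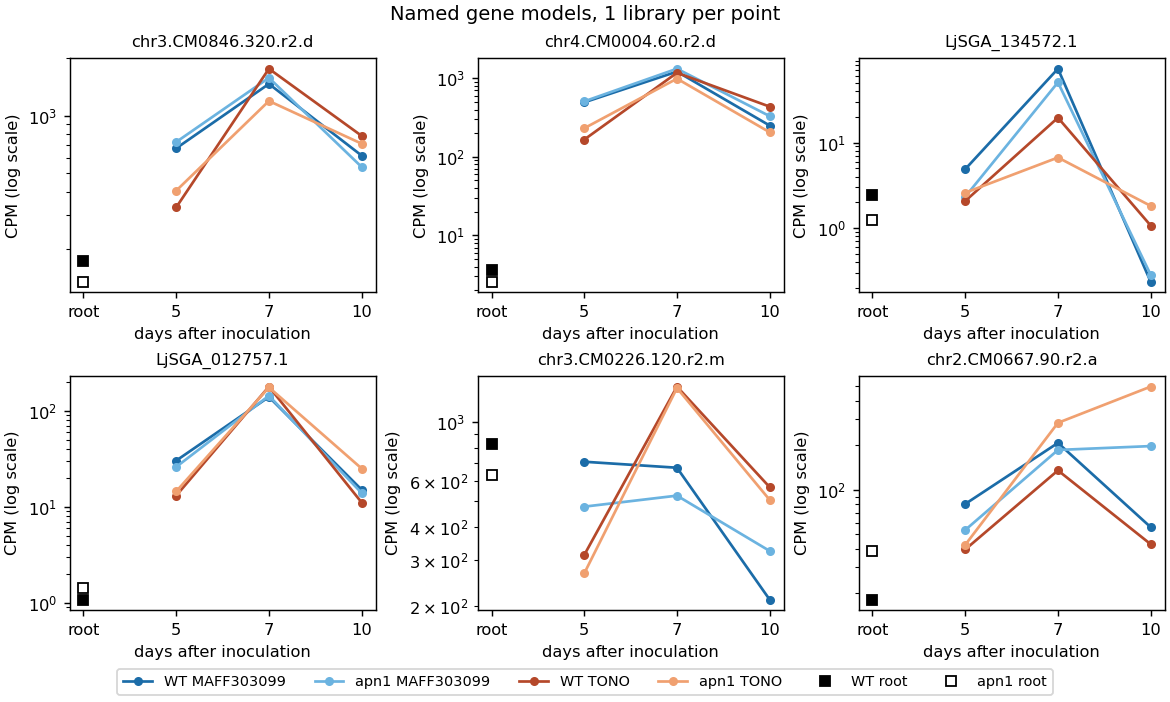
CPM on a log axis in each of the 14 libraries for 6 named members, with roots as squares and nodules joined over 5, 7 and 10 dai for each genotype and strain. The peak of LjSGA_134572.1 is higher with MAFF303099 (73.1 and 50.7 CPM) than with TONO (19.6 and 6.69 CPM), chr3.CM0226.120.r2.m peaks with TONO, and chr2.CM0667.90.r2.a is still at 496 CPM in apn1 with TONO at 10 dai.

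Taken combination by combination, 146 members were at least 2-fold above both other days in wild type with MAFF303099, 171 in wild type with TONO and 146 in apn1 with MAFF303099. Over all gene models over the floors the shares were 1.47%, 2.22% and 1.60%. In apn1 with TONO, where the 10 dai library was not used, 82 members had this profile, against 1.30% of gene models over the floors. The 7 dai library was the highest of its 3 days for 207, 208 and 207 members in the first 3 combinations, against 23.6%, 25.8% and 24.7% of the gene models over the floors, and for 187 in apn1 with TONO, against 28.2%. The rule used 11 of these 12 libraries, those of 5 and 7 dai in apn1 with TONO among them, so these counts are a description and nothing is read from the gap to the shares.

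To read the profile in libraries that did not choose it, the same rule was applied to part of the nodules. Applied to the 6 nodule libraries of MAFF303099, it gave 205 gene models, 148 of them members. In wild type with TONO, 120 of the 205 (58.5%) were at least 2-fold above both other days, against 2.25% of the gene models over the same floors. In apn1 with TONO the number was 74 (36.1%), against 1.28%. Applied to the 6 wild type nodule libraries, the rule gave 209 gene models, 188 of them members. Of these, 136 (65.1%) had the profile in apn1 with MAFF303099, against 1.60%, and 70 (33.5%) in apn1 with TONO, against 1.29%. The 7 dai library was the highest of the 3 days for 98.1% and 87.6% of the 209, against 24.6% and 27.9% over the same floors. These shares have no replicate check, and gene models on such a list may move together.

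The strains were compared at 5 dai, in a comparison added after the data had been seen. The rule used the mean of the 4 libraries of 5 dai but not the difference between the strains. A low level with 1 strain lowers that mean, so the comparison is not free of the rule. In wild type 203 members rose at least 2-fold from 5 to 7 dai with TONO and 154 with MAFF303099. Of the gene models over the floors, 8.65% and 5.87% did. In apn1 187 and 160 members did, against 8.23% and 6.5%. The counts below are therefore a description, and nothing is read from their gap to the shares. With TONO the members were lower: 113 of 208 passed (edgeR quasi-likelihood test, Benjamini-Hochberg adjusted p under 0.05 over 32811 genes), and all 113 were lower with TONO. Of all genes tested, 1.80% passed in this direction and 1.02% in the other. In this and the other tests, the genes tested needed only a mean scaled count of 10, and the members 10 CPM at 7 dai. The shares over all genes are thus not those of gene models at like levels. The fitted log2 difference had a median of -0.84 over the members and 0.00 over all genes tested, and was below 0 for 201 of the 208. Both TONO libraries lay below both MAFF303099 libraries for 182 members, or 87.5%, where 23.2% of the gene models over the floors had this order. In wild type 122 members were at least 2-fold lower with TONO, where 3.14% of the gene models over the floors were, and in apn1 41 members, where 1.18% were. Whether the genotypes differ in this was not tested at 5 dai.

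Set against the root of the same genotype, the members stood at different heights at 5 dai. In wild type the median log2 difference from the root was 1.0 with MAFF303099 and -0.02 with TONO. In apn1 the medians were 0.81 and 0.29. At 7 dai they were 2.29 and 1.96 in wild type and 2.16 and 1.88 in apn1. Comparisons within a genotype share the root library. Levels at 7 dai exceeded those at 5 dai by a median of 2.08 (wild type) and 1.72 (apn1) on the log2 scale with TONO, against 1.19 and 1.35 with MAFF303099. Over the gene models over the floors these medians were 0.037 and 0.049 with TONO, and 0.009 and 0.025 with MAFF303099. The rule asked for this rise and used the 7 dai levels, so these values are a description.

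The clearest single case at 5 dai was chr1.CM0316.460.r2.m. It had 111 and 76.7 CPM with MAFF303099 at 5 dai, in wild type and apn1, and 9.96 and 20.1 CPM with TONO, where the roots had 6.29 and 6.01 CPM. At 7 dai it had 683, 763, 619 and 639 CPM in wild type and apn1 with MAFF303099 and wild type and apn1 with TONO. The strains thus did not overlap at 5 dai in this gene model (log2 difference -2.69, SE 0.26, edgeR adjusted p = 1.36e-05). LjSGA_091734.1 had 28.7 and 32.7 CPM with MAFF303099 at 5 dai and 2.35 and 8.09 with TONO (log2 difference -2.77, SE 0.28, edgeR adjusted p = 1.61e-05). At 7 dai its levels were 53.4 and 55.8 CPM with MAFF303099 and 28.3 and 23.0 with TONO, and the groups again did not overlap.

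These fits of 4 libraries have 1 residual degree of freedom, so the p-values rest on the spread shared over all genes and measure only what the terms genotype and strain leave over. When the 8 libraries of 5 and 7 dai were fitted together, with 3 residual degrees of freedom, 102 members were lower with TONO at 5 dai and 0 higher, among 750 genes called. Without wild type with MAFF303099 at 5 dai this number was 34, among 242 genes, and without wild type with TONO at 5 dai it was 41, among 293.

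**Figure D3:**
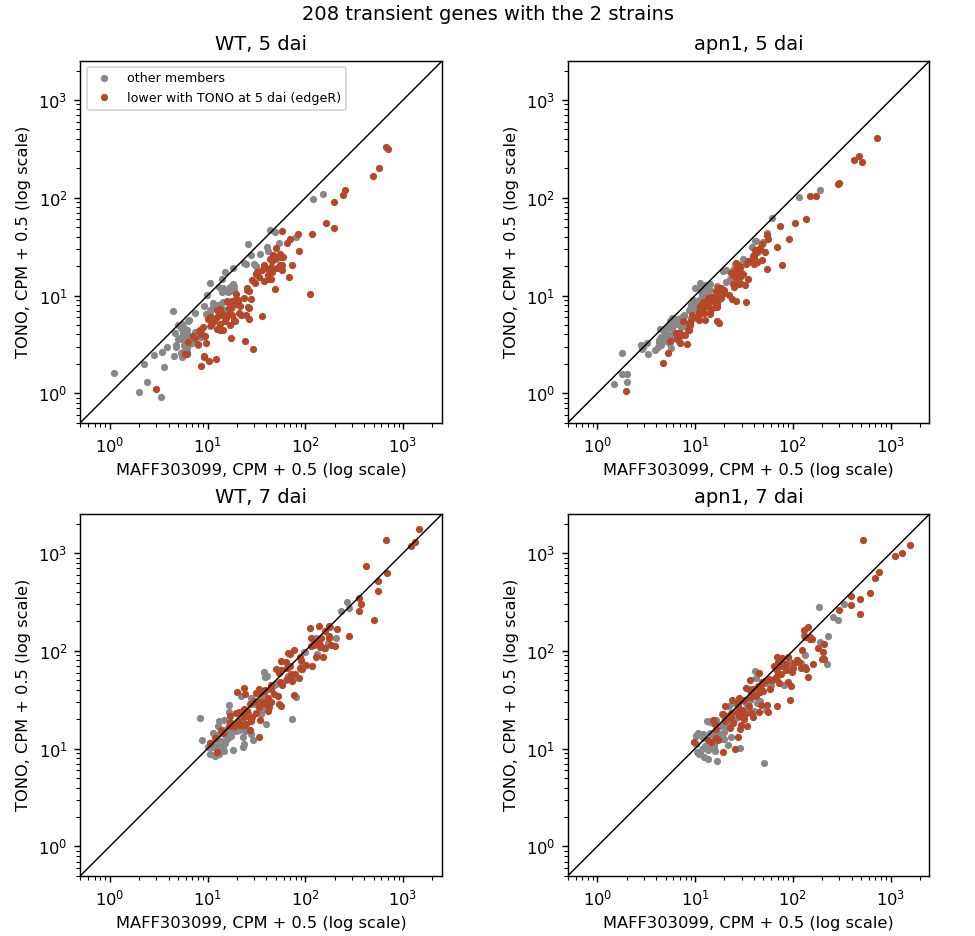
Level with TONO against level with MAFF303099 (CPM + 0.5, log axes) for the 208 members at 5 and 7 dai in each genotype, with the line of equality; members called lower with TONO at 5 dai are in colour. At 5 dai 198 members in wild type and 196 in apn1 lie below the line, and at 7 dai 141 and 161 do. Of the 13626 gene models over the floors (not shown), 6614 and 6908 were lower with TONO at 5 dai, and 5986 and 6499 at 7 dai.

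Whether the strain difference changed from 5 to 7 dai was tested in the 8 libraries as a strain by day term, also added after the data had been seen. The rule asked for a 2-fold rise in the means of these libraries, which a large rise with 1 strain can bring about. The test is thus not free of the rule, and no such rise was asked of all genes. Nothing is read from the gap to their share. Of the members, 14 passed, all with a larger rise with TONO (edgeR, adjusted over 32806 genes), where 0.28% of all genes passed in this direction. The fitted term had a median of 0.59 on the log2 scale over the members and 0.00 over all genes, and was above 0 for 176 of 208. The number was 1 to 51 when 1 of the 8 libraries was left out, and 1 or 2 without wild type with MAFF303099 at 5 dai or any library of 7 dai. It was 22 without apn1 with MAFF303099 at 5 dai and 51 without apn1 with TONO at 5 dai. Without wild type with TONO at 5 dai 13 passed, of which 1 had the opposite direction. DESeq2 gave 55, among 539 genes called, and all 55 had a larger rise with TONO.

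The most distinct member in this respect was chr3.CM0226.120.r2.m. It had 830 and 627 CPM in the wild type and apn1 roots. With MAFF303099 it had 708 and 478 CPM at 5 dai, 672 and 526 at 7 dai and 212 and 324 at 10 dai, with no peak in wild type. With TONO it had 313 and 267 CPM at 5 dai, 1365 and 1348 at 7 dai and 566 and 507 at 10 dai. It was therefore lower with TONO at 5 dai and higher at 7 dai in both genotypes (strain by day term 2.20 on the log2 scale, SE 0.23, edgeR adjusted p = 0.00375). In all, 35 of the 208 members (16.8%) were lower with TONO at 5 dai and higher at 7 dai in both genotypes, as were 5.99% of the gene models over the floors. The rule used these libraries, so nothing is read from this gap either.

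At 7 dai itself, 53 members were lower and 6 higher with TONO (edgeR, genotype and strain as terms, adjusted over 32637 genes), where 1.99% and 2.58% of all genes passed in these directions and 4.57% in either. Of the 53, 32 (60.4%) were among the 113 lower at 5 dai, of which they made up 28.3%. Of all 208 members 54.3% were lower at 5 dai and 25.5% at 7 dai, so nothing is read from this overlap. The lowest p was that of LjSGA_134572.1, whose levels are given above (log2 difference -2.40, SE 0.16, edgeR adjusted p = 4.67e-46). The next was chr1.CM0316.990.r2.d, with 75.4 and 69.2 CPM with MAFF303099 and 35.2 and 26.6 with TONO (log2 difference -1.24, SE 0.15, edgeR adjusted p = 6.34e-14). Higher with TONO were chr3.CM0226.120.r2.m (log2 difference 1.19, SE 0.19, edgeR adjusted p = 5.97e-08) and LjSGA_022865.1. The latter had 7.84 and 9.74 CPM with MAFF303099 and 19.9 and 13.0 with TONO (log2 difference 0.88, SE 0.18, edgeR adjusted p = 0.000149). Naming asked for the same direction in both genotypes, which 58 of the called members had.

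This count depended on the fit. In the fit of 8 libraries 7 members passed at 7 dai, 6 lower and 1 higher with TONO, and when any library of 7 dai was left out of it 0 did. DESeq2 on the 4 libraries gave 29, among 549 genes called. In the fit of 8 libraries, whole or with 1 library left out, and under the other settings tried, LjSGA_022865.1 missed the threshold in 10 of 13 alternatives and the other 3 in 4 of 13 each.

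Over all 12 nodule libraries, with the 4 combinations and the 3 days as terms, the strains were first compared within each genotype. In wild type 1 member was lower with TONO, LjSGA_013441.2.1, where 0.0584% of all genes passed in this direction, 0.203% in the other and 0.261% in either (edgeR, adjusted over 32549 genes). It had 27.2, 55.4 and 24.3 CPM at 5, 7 and 10 dai with MAFF303099 and 8.70, 26.7 and 12.1 with TONO. It was lower in 3 of 3 pairs, which its naming required (log2 difference -1.23, SE 0.17, edgeR adjusted p = 0.0376). The call was lost in 10 of 17 alternatives, each leaving out 1 library, and DESeq2 gave 17 members, all lower, among 1385 genes called. At an unadjusted p under 0.05 there were 43 members (20.7%), against 15.5% of all genes. The fitted log2 difference had a median of -0.41 over the members and -0.02 over all genes, and was below 0 for 180 of 208. Without apn1 with TONO at 10 dai 10 members passed. In apn1 the strains gave 0 members with edgeR, with 6 (2.88%) at an unadjusted p under 0.05, against 5.37% of all genes. DESeq2 gave 0 as well, and with edgeR 0% of all genes passed. Here the rule used the 10 dai library with MAFF303099 and left that with TONO free. The members' median log2 difference of TONO from MAFF303099 in apn1 was -0.61 at 5 dai, -0.31 at 7 dai and 0.71 at 10 dai. The absence of calls in apn1 is therefore not read as equal levels.

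Between apn1 and wild type, 0 members passed with edgeR over both strains (17, or 8.17%, at an unadjusted p under 0.05, against 8.56% of all genes), where 0.0614% of all genes were higher in apn1, 0.0215% lower and 0.083% either. With MAFF303099 it was 0 (14 unadjusted, or 6.73%, against 7.44%), where the shares were 0.0369% higher, 0.0154% lower and 0.0522% either. With TONO it was 0 (22 unadjusted, or 10.6%, against 9.79%), where they were 0.0369% higher, 0.0246% lower and 0.0614% either. The genotype by strain term likewise gave 0 (11 unadjusted, or 5.29%, against 8.27%), with 0% of all genes. In these 4 comparisons DESeq2 gave 3, 2, 0 and 0 members, among 267, 233, 184 and 192 genes called. These members' counts are near those of all genes and are no result about the members. The members' median fitted log2 difference between apn1 and wild type was 0.03 over both strains, -0.09 with MAFF303099 and 0.26 with TONO. Over all genes these medians were 0, -0.02 and 0.02. The genotype by strain term had a median of 0.35 over the members and 0.03 over all genes, and was above 0 for 166 of 208. It includes the 10 dai library that the rule left free, as do the comparisons with TONO and over both strains.

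At 7 dai, 1 member was higher and 12 were lower in apn1 (edgeR, adjusted over 32637 genes), where 1.06% and 0.444% of all genes passed, 1.51% in all, and DESeq2 gave 3, all lower. The lowest p was again that of LjSGA_134572.1, at 73.1 against 50.7 CPM with MAFF303099 and 19.6 against 6.69 with TONO (log2 difference -1.01, SE 0.15, edgeR adjusted p = 3.55e-08). Next came chr4.CM0175.550.r2.d, with 150 CPM in wild type and 89.4 in apn1 with MAFF303099, and 86.9 and 47.4 with TONO (log2 difference -0.81, SE 0.15, edgeR adjusted p = 1.21e-05). In the other direction chr6.CM0385.130.r2.d had 10.0 and 15.6 CPM with MAFF303099 and 10.9 and 17.5 with TONO (log2 difference 0.65, SE 0.18, edgeR adjusted p = 0.0223). With DESeq2 this last call was lost. Naming asked for the same direction with both strains, which 11 of the called members had.

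At 5 dai, in a comparison added after the data had been seen, 3 members were lower and 0 higher in apn1, where 0.061% of all genes passed in each direction (edgeR, adjusted over 32811 genes). LjSGA_010022.2 had 3.93 and 6.38 CPM in wild type with MAFF303099 and TONO against 1.0 and 0.755 in apn1 (log2 difference -2.53, SE 0.33, edgeR adjusted p = 0.00171). The other 2, chr5.CM0200.710.r2.m and chr5.CM0200.720.r2.m, are next to each other by number on 1 contig. The ratio of the second to the first stayed between 2.34 and 4.55 in the 14 libraries, so their calls may not be independent. The first had 9.32 and 9.53 CPM in wild type and 3.90 and 4.02 in apn1, and the second 27.1 and 25.7 against 10.7 and 12.9. Their log2 differences were -1.26 (SE 0.22, edgeR adjusted p = 0.0257) and -1.17 (SE 0.18, edgeR adjusted p = 0.0108). All 3 gene models shared a profile at 10 dai, where wild type with MAFF303099 stood apart. LjSGA_010022.2 had 16.8 CPM there and 0.849 to 2.02 in the other 3 libraries, chr5.CM0200.710.r2.m 16.3 against 1.33 to 1.89, and chr5.CM0200.720.r2.m 53.0 against 6.05 to 7.60. In roots LjSGA_010022.2 had 0.398 CPM in apn1 and 4.37 in wild type. It met the root floor of 1 CPM through wild type only, so nothing is read from this gap or from its call at 5 dai. The chr5.CM0200 models had 4.64 and 11.0 CPM in apn1 roots and 2.36 and 8.62 in wild type roots.

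In the library outside the rule, apn1 with TONO at 10 dai, the members were nearer to their 7 dai level than in the other series. The median log2 difference of 10 from 7 dai was -0.84 there, against -1.53 in wild type and -1.64 in apn1 with MAFF303099 and -1.42 in wild type with TONO, the 3 series that the rule used. At least 2-fold lower at 10 than at 7 dai were 87 members in apn1 with TONO, against 4.58% of the gene models over the floors. In the 3 series that the rule used the numbers were 190, 188 and 176, against 10.8%, 9.42% and 11.1%. For 21 members (10.1%) the level in apn1 with TONO was higher at 10 than at 7 dai, as it was for 48.9% of the gene models over the floors. This library was the highest of the 4 at 10 dai for 139 members (66.8%), where it was the highest for 31.8% of the gene models over the floors. It was at least 2-fold above the mean of the other 3 for 57 members, against 4.43%, and at least 2-fold below it for 6, against 4.8%.

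Because the rule asked for low levels in the other 3 libraries, part of this gap is built in. The lists chosen without either library compared are free of that. Of the 205 gene models chosen with MAFF303099, 129 (62.9%) were at least 2-fold lower at 10 than at 7 dai in wild type with TONO, against 11% of the gene models over the same floors. In apn1 with TONO 81 (39.5%) were, against 4.39%. Of the 209 chosen in wild type, 182 (87.1%) were so in apn1 with MAFF303099, against 9.53%, and 81 (38.8%) in apn1 with TONO, against 4.63%. The median log2 differences of 10 from 7 dai were -1.24 and -0.73 for the first list and -1.65 and -0.79 for the second. Each of these values rests on 1 library per condition and was not tested. The TMM factor of wild type with TONO at 10 dai was 0.7617, the lowest of all, against 1.004 for apn1 with TONO; the median difference of the members from the mean of the other 3 libraries was 0.57 to 0.58 under TMM, RLE and upper-quartile scaling.

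**Figure D4:**
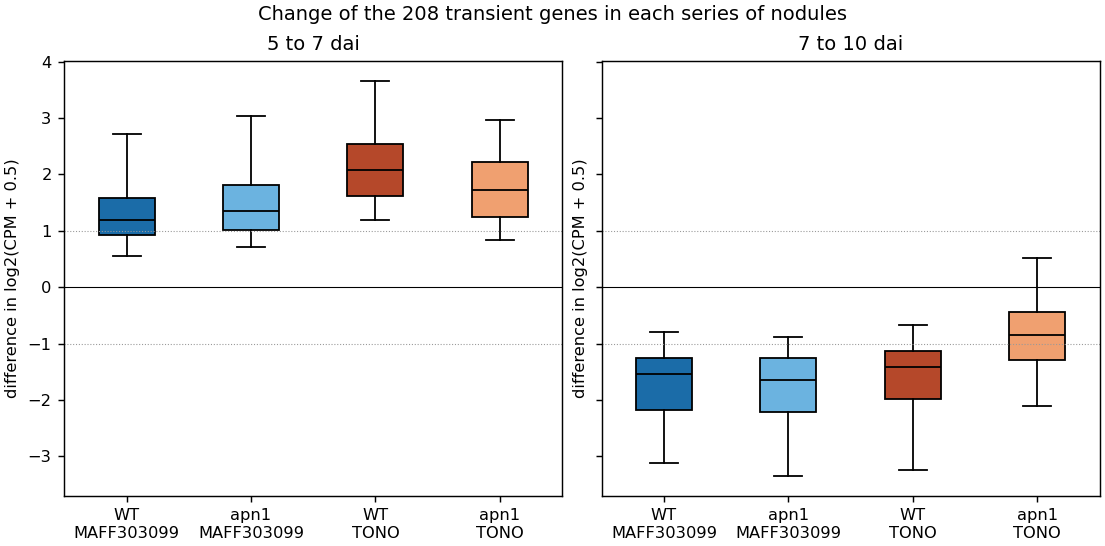
Differences in log2(CPM + 0.5) between days for the 208 members in each series of nodules (box: quartiles with the median; whiskers: 5th to 95th percentile). The rise from 5 to 7 dai has medians of 2.08 and 1.72 with TONO and 1.19 and 1.35 with MAFF303099, and the decline from 7 to 10 dai has a median of -0.84 in apn1 with TONO, against -1.42 to -1.64 in the other series. The rule asked for a rise and a decline of the means, without apn1 with TONO at 10 dai.

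The members differed in how far they stood above the others at that point. The ratio to the mean of the other 3 libraries of 10 dai was highest, at 5.01, in chr2.CM0667.90.r2.a. This member had 55.9 CPM in wild type and 197 in apn1 with MAFF303099 at 10 dai, and 42.9 and 496 with TONO, so it was higher in apn1 with both strains. At 7 dai it had 207 and 186 CPM with MAFF303099 and 135 and 283 with TONO. In chr1.CM0105.1510.r2.m, with a ratio of 4.97, the level was 18.6 CPM against 2.07 to 5.71 in the other libraries of 10 dai, and 18.8 CPM at 7 dai in the same series. The lowest ratios, 0.225 and 0.305, were those of LjSGA_010022.2 and chr5.CM0200.710.r2.m, described above, and follow the high level of wild type with MAFF303099.

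Compared with roots, the members fell into 3 classes, which rest on means that chose them and are a description. In 141 the root mean was below the 5 dai mean, by any amount. This need not hold with each strain: LjSGA_091734.1 had 5.36 CPM in the wild type root and 2.35 with TONO at 5 dai. In 61 the root mean lay from the 5 dai mean up to the 7 dai mean. In 6 the root mean was at or above the 7 dai mean. Of the 13626 gene models over the floors, 6271 had a root mean below those of 5 and 7 dai. The second order was that of 1260 and the third that of 6095. In all, 167 members (80.3%) were at least 2-fold above the root mean at 7 dai, where 15.4% of the gene models over the floors were. At least 10-fold above it were 62 members, and 333 of the 13626. The 10 dai mean was below the root mean for 76 members, and for 6138 of the 13626. In apn1 with TONO, 70 of the first class (49.6%), 14 of the second (23%) and 3 of the 6 in the last (50%) were at least 2-fold lower at 10 than at 7 dai, against 4.58% of the gene models over the floors.

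The 2 members highest in roots relative to 7 dai show the third class. chr1.CM0001.650.r2.m had 681 and 727 CPM in roots, 43.9 to 62.3 at 5 dai and 72.8 to 221 at 7 dai. At 10 dai it had 17.8, 25.9 and 23.6 CPM in the libraries of the rule and 78.4 in apn1 with TONO, which was above its 72.8 CPM at 7 dai. chr3.CM0136.240.r2.a had 55.8 and 48.1 CPM in roots, 3.20 to 6.54 at 5 dai, 10.2 to 14.5 at 7 dai and 5.37 to 7.67 at 10 dai. Both were below root level in every nodule library and had a small second maximum at 7 dai, except chr1.CM0001.650.r2.m in apn1 with TONO. Between the roots themselves, the level in apn1 was 2-fold or more above wild type for 5 members and 2-fold or more below it for 13, against 0.631% and 0.895% of the gene models over the floors. This sets 1 library against 1. The floor of 1 CPM was asked of the higher root only, and some members met it in 1 root alone. Nothing is therefore read from the gap to these shares.

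**Figure D5:**
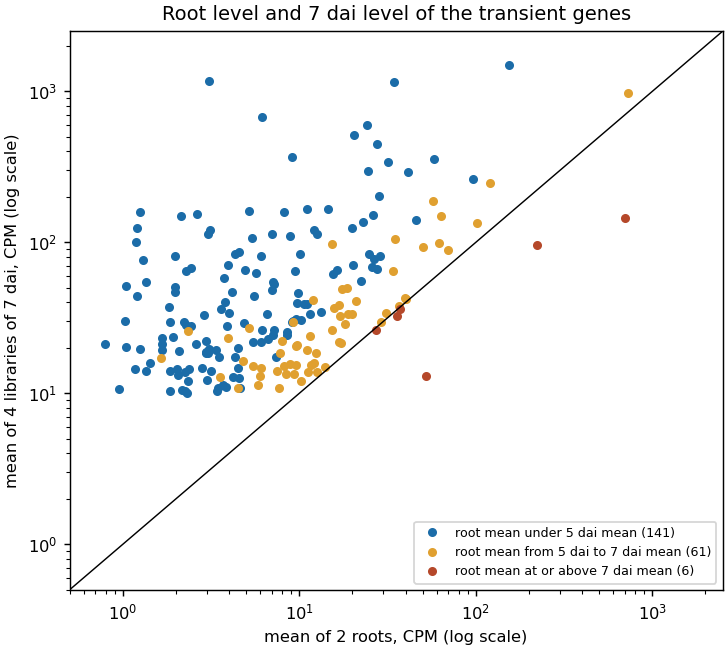
Mean level of the 208 members at 7 dai (4 libraries) against their mean level in roots (2 libraries), both in CPM on log axes, with the line of equality. The 6 members on or below the line had at least as much in roots as at 7 dai, and all other members lie above it.

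By their identifiers, members were numbered close together more often than other gene models. Of the 129 members with a contig and a number, 25 (19.4%) had another member as the next model by number on the contig. Of the 9245 other gene models over the floors with such numbers, 96 (1.04%) had a member there. The neighbours formed 11 runs, the longest of 4 members, chr3.CM0142.80.r2.d, chr3.CM0142.90.r2.d, chr3.CM0142.110.r2.d and chr3.CM0142.120.r2.d. In these the levels were nearly the same. The first had 26.0 and 31.5 CPM in roots, 27.3 to 49.4 at 5 dai, 66.7 to 95.4 at 7 dai and 26.5 to 39.8 at 10 dai. For chr3.CM0142.90.r2.d the ranges were 23.2 and 30.2, 24.5 to 55.5, 70 to 93.0 and 32.1 to 39.0 CPM. The ratio of the second to the first stayed between 0.819 and 1.21 in the 14 libraries. Whether such models are near-identical copies that share reads was not tested, so these levels may not be independent.

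Not all neighbours were alike in level. chr3.CM0846.320.r2.d was 55.2 to 89.7 times as high as its neighbour chr3.CM0846.310.r2.d in the 14 libraries, so their profiles were close at very different levels. Between chr1.CM0001.650.r2.m and chr1.CM0001.640.r2.m the ratio ran from 2.72 to 49.1. The contig chr2.CM0667 held 6 members and LjB04I14 held 5. By chromosome number in the identifier, 36 members (17.3%) were on chromosome 2, where 11.2% of the gene models over the floors were, and 16 (7.69%) on chromosome 1, against 16.0%. A further 79 members (38.0%) had LjSGA identifiers, which name no chromosome, against 31.2%. These shares are a description, as neighbours are not independent.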

How the data were processed

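The authors deposited 12 tables, each setting 1 nodule library against the root library of the same genotype. Per the file headers, each holds the original read count per gene model and a normalized signal from the iDEGES/DESeq procedure, which equals the count divided by 1 factor set within the table and was not used here. Bowtie2 2.0.2 and DESeq are listed in the submitters' processing notes. Genome build, annotation, counting tool and use of strand: not given in the sources used here. Overlapping or near-identical models may therefore share reads. Each root, identical in the 6 tables that hold it, was used once.

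CPM were computed with TMM scaling over 14 libraries. Tests used edgeR 4.0.16 (quasi-likelihood, R 4.3.3) on every gene whose average scaled count reached 10, which all 208 members did. Models were combination and day over 12 nodule libraries (6 residual degrees of freedom), genotype and strain over the 4 libraries of 1 day (1), and genotype with strain by day over 8 libraries (3). With no replicates, p-values measure only what these terms leave over. SE is the log2 difference over the square root of F. Other log2 differences used a pseudocount of 0.5 CPM. DESeq2 1.42.0, other scalings, no filter and left-out libraries were alternatives. A count of 0 allows 3 counts, or 0.0462 to 0.111 CPM, which covers counting error only. The tests were checked on simulated counts. Of 2-fold changes, 20% were recovered for strain by day, 44% for the strains in wild type and 53% to 82% in the other tests checked. Of 4-fold changes it was 72% for strain by day and 86% to 97% otherwise, with 5 to 8 false calls each. A low count of calls is therefore not read as equal levels. Named gene models followed fixed ranks (highest level, peak ratio, ratio to roots and to other 10 dai libraries, nearest to the threshold, longest run, and up to 2 per direction and comparison with the lowest p and 1 direction in all pairs); chr5.CM0200.710.r2.m at 5 dai, neighbours and contigs were added after their values were seen. Members and comparisons were chosen with earlier results of these data known.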

Additional observations from a re-analysis of the deposited data

Results flagged for a closer look

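Among the named members and those numbered next to them, the effect of 1 factor went in opposite directions in every library pair of the groups set side by side in 10. No share over all gene models was counted for this, so nothing is read from the number. Of these, chr3.CM0226.120.r2.m and LjSGA_022865.1 had been named for being higher with TONO at 7 dai. For 8 of them this was the effect of TONO against MAFF303099, compared between 7 and 5 dai in both genotypes (log2 CPM, 7 dai effect minus 5 dai effect, with the edgeR adjusted p of the strain by day term). The difference was 2.20 for chr3.CM0226.120.r2.m, from -1.01 at 5 dai to 1.19 at 7 dai, and passed (adjusted p = 0.00375). It was 1.32 for LjSGA_012757.1, from -1.0 to 0.32, and passed (adjusted p = 0.0172). In the run on chr3.CM0142 it was 1.18 for chr3.CM0142.110.r2.d, which passed (adjusted p = 0.0424), and 1.03 for chr3.CM0142.120.r2.d, which did not (adjusted p = 0.0571). Their effects at 7 dai were 0.30 and 0.03, so the latter was near 0. It did not pass either for LjSGA_022865.1 (1.41, adjusted p = 0.105), chr6.CM0385.130.r2.d (1.27, adjusted p = 0.0956) or chr3.CM0142.80.r2.d (1.0, adjusted p = 0.0761). The effects of these models at 7 dai were 0.85, 0.14 and 0.32. In chr5.CM0200.710.r2.m the effect went the other way, from 0.04 at 5 dai to -0.84 at 7 dai, a difference of -0.88 (adjusted p = 0.638). LjSGA_013441.2.1 was lower in apn1 than in wild type on 3 of 3 days with MAFF303099 (mean -0.48) and higher on 3 of 3 days with TONO (mean 0.27). This difference of 0.75 did not pass in the edgeR genotype by strain test (adjusted p = 0.521). In the same comparison chr3.CM0136.250.r2.a, next to a named member, was higher in apn1 with MAFF303099 (mean 0.21) and lower with TONO (mean -0.39), a difference of -0.60 (adjusted p = 0.569).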

How the results depend on the processing

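The number of members was 41 with a 3-fold and 495 with a 1.5-fold threshold, 91 when each of 3 combinations had to pass alone, and 182 to 237 with 1 library left out. No paired analysis was possible because the labels give no replicate numbers. With DESeq2 the counts of members called were 3 for apn1 against wild type, 2 with MAFF303099, 17 for the strains in wild type, 3 and 29 for genotype and strain at 7 dai, and 55 for strain by day; without the low-count filter strain by day gave 26 and genotype at 5 dai 5. Without 10 dai the strains in wild type gave 4, and 0 to 10 with 1 library left out. In the fit of 8 libraries 7 members passed between strains at 7 dai, against 59 in the 4 libraries of that day. With 1 library left out of it the count was 0 without any library of 7 dai, 9 without either MAFF303099 library of 5 dai, and 25 and 26 without the TONO library of 5 dai of apn1 and wild type; at 5 dai 34 to 132 passed, and for strain by day 1 to 51. The cause of these shifts was not tested. No other count moved by over 1.5 times, and none of the 12 results of single gene models that were recomputed changed direction; the strain by day calls of single models and the 5 dai call of chr5.CM0200.710.r2.m were not. Libraries of 10 dai were shallower; what this limits was not tested. The fits of 4 libraries leave no residual degree of freedom when 1 is left out, so that alternative was run in the 8 libraries only, and not for genotype at 5 or 7 dai.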
